A study of Rattus norvegicus with 6 samples.

Results

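The genes of the proteasome were compared between myocardium of sham-operated rats and myocardium made ischemic by coronary ligation. The set held every gene of the deposited table whose symbol starts with Psm, a letter from a to g and a digit, which gave 50 of 32623 genes. Total RNA of 6 samples had been sequenced, 3 from sham rats and 3 from rats with ligation of the left anterior descending coronary artery, and each title carried a time of 30 min. All rats were given as male and wild type, and anesthesia, ventilation and left thoracotomy were the surgery described, with no ligation mentioned for sham. Strain and age were not given in the sources used here, and neither were the part of the heart that was sampled and whether a sample was 1 animal.

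The proteasome is the main protease for proteins tagged with ubiquitin. Its barrel-shaped core has outer rings of alpha subunits, which form the gate, and inner rings of beta subunits, some of which carry the cutting sites. A regulatory particle with a ring of ATPases and a set of non-ATPase subunits binds, unfolds and feeds in the tagged protein. In cells exposed to interferon the cutting subunits Psmb5, Psmb6 and Psmb7 can be replaced by Psmb8, Psmb9 and Psmb10, which gives the immunoproteasome. Heart muscle relies on the proteasome for turnover of contractile and damaged proteins.

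Most proteasome genes had somewhat higher values in ischemia, and few differences were large against the spread between samples. Of the 50 genes, 48 had a mean of at least 0.5 FPKM (fragments scaled to gene length and library size) and were tested. Psma8, an alpha subunit of the testis, had 4 counts in sham replicate 3 and 0 in each other sample. Psmb11, the beta subunit of the thymus, had 8 counts in sham replicate 2 and 0 in each other sample. The log2 fold change of ischemia against sham was above 0 for 42 of the 48 genes, beside 49.9% of all 13964 genes tested. The median over the 48 was 0.31 on the log2 scale, with a range from -0.53 to 1.07, and the median of all genes tested was -0.0015. Among the 8156 genes with a mean of at least 5 FPKM, 52% were above 0 and the median was 0.0355.

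In 30 of the 48 genes every ischemia FPKM lay above every sham FPKM, beside 23.6% of all genes tested and 28.9% of those with a mean of at least 5 FPKM. In 0 of the 48 did every ischemia FPKM lie below every sham FPKM, beside 15% of all genes tested, and the groups overlapped in the other 18. Higher values in ischemia with an unadjusted p under 0.05 were found for 14 of the 48, beside 18.2% of all genes, and lower values for 0. At an adjusted p under 0.05 in the quasi-likelihood test of edgeR, 2 genes rose, Psmd8 and Psme3, beside 5.18% of all genes, so the share of called genes was close to the background. None fell with edgeR, beside 1.53% of all genes. DESeq2 called 14 of the 48 higher, beside 14.8% of all genes, and 0 lower, beside 12.5%. Without sham replicate 1, whose labelled sex its reads did not match, 38 of the 48 were above 0 with a median of 0.28, beside 50.3% of all genes, and 32 had every ischemia FPKM above sham, beside 27.6%. In that fit edgeR called 0 of all 13964 genes, with 3090 at an unadjusted p under 0.05, so it gives no call for any gene.

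**Figure D1:**
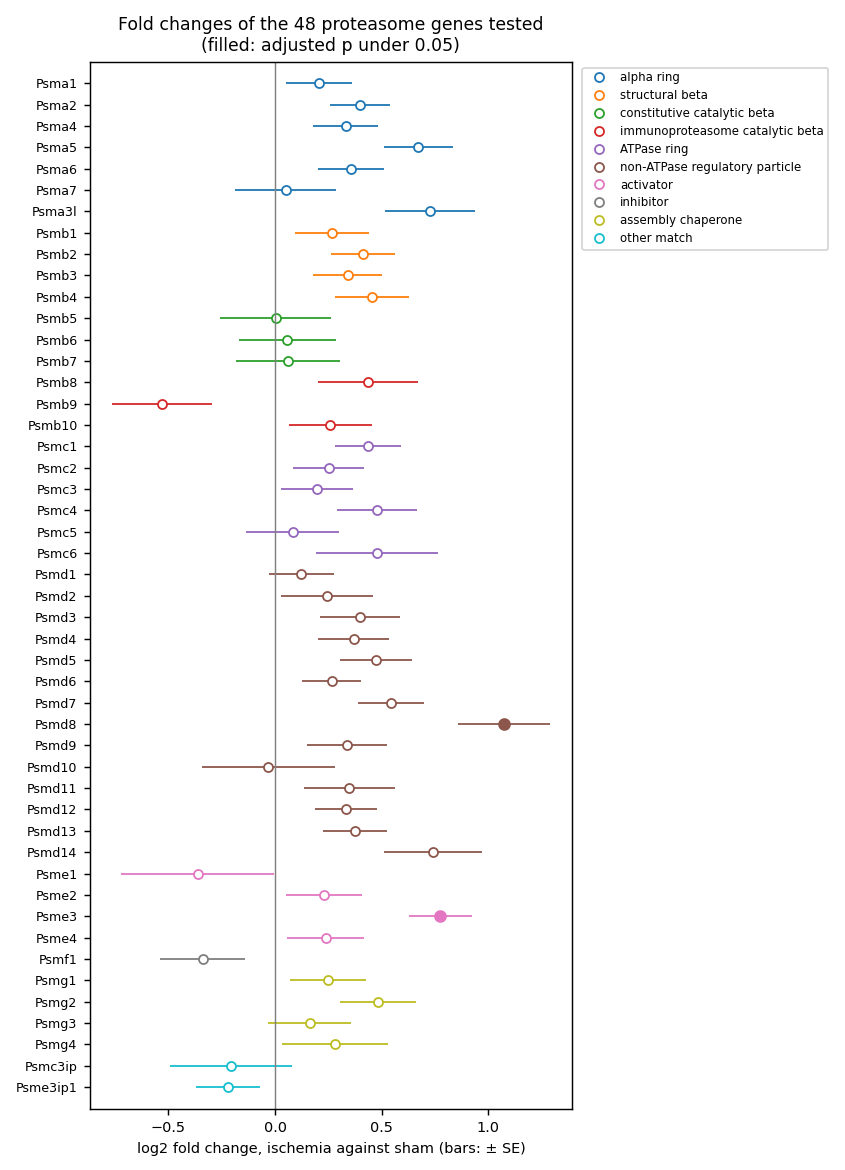
Log2 fold changes of ischemia against sham for the 48 proteasome genes tested, with bars of 1 standard error and colors by role in the particle. Of the points, 42 lie to the right of 0, and the filled points are Psmd8 at 1.07 and Psme3 at 0.78.

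The samples also differed in sequencing measures and in marker genes, some within a group and some between the groups. Total counts ranged from 68529126 to 79591989, and mitochondrial genes took 15.4% to 21.4% of them, most in sham replicate 2. Sham replicate 1 was labelled male like the others, yet held 26 reads on 3 Y-linked genes (Ddx3y, Kdm5d and Eif2s3y), against 1772 to 4318 in each other sample, so calls are given also without it. Cardiomyocyte markers, 9 genes, summed to 33327 to 59016 FPKM in sham and 17337 to 33961 FPKM in ischemia, and 8 of the 9 had a fold change below 0 with 0 called. Atrial markers, 4 genes, summed to 214.9 FPKM in sham replicate 2 and up to 48341 FPKM in the other sham samples, and to 1279 to 9610 FPKM in ischemia, with 0 called. Neutrophil and monocyte markers, 16 genes, all had fold changes above 0, beside 49.9% of all genes. In edgeR 12 of them rose, beside 5.18% of all genes, while without sham replicate 1 no gene of the table passed. These markers summed to 108.7 to 150.2 FPKM in sham and 879.5 to 5365 FPKM in ischemia, highest in ischemia replicate 2. Mmp9 had 0 counts in sham replicate 1. Of the lymphocyte markers 8 were tested, 6 were above 0 and 0 were called, and the list summed to 13.1 to 18.3 FPKM in sham and 22.6 to 35.5 FPKM in ischemia. The 5 endothelial markers summed to 169.2 to 201.7 FPKM in sham and 216.3 to 221.1 FPKM in ischemia, with 0 called. The 5 fibroblast markers, all with a fold change below 0 and 0 called, summed to 685.0 to 2223 FPKM in sham and 263.8 to 681.5 FPKM in ischemia. The summed levels did not overlap between groups for the neutrophil and monocyte, lymphocyte, endothelial and fibroblast markers, and overlapped for the cardiomyocyte and atrial markers. The part of these cell types in the proteasome values was not tested. In such bulk tissue, fewer cells of a type and less RNA per cell cannot be told apart.

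The proteasome genes took 0.434%, 0.407% and 0.443% of all counts in the sham samples, given in replicate order as throughout, against 0.564%, 0.553% and 0.531% in the ischemia samples. The groups did not overlap in this share. Relative to the sham mean of each gene, the median log2 FPKM of the 48 genes was 0.05, -0.13 and 0.09 in the sham samples and 0.40, 0.46 and 0.35 in the ischemia samples. Sham replicate 2 held the lowest FPKM of 30 genes and ischemia replicate 2 the highest of 22. These ranks leaned on how libraries were scaled: on CPM (counts scaled to library size) scaled by the trimmed mean of M-values, sham replicate 2 was lowest in 8 genes and sham replicate 1 in 21, and the medians changed to -0.05, 0.08 and -0.02 for sham against 0.33, 0.27 and 0.34 for ischemia. On that scale Psmb10, Psmc3, Psmd2, Psme2 and Psmg1 overlapped between groups. Psmd1 no longer did, so that 26 genes lay wholly above sham, beside 22% of all genes. Psme3ip1, which overlapped on FPKM, lay wholly below sham, beside 19.1% of all genes.

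**Figure D2:**
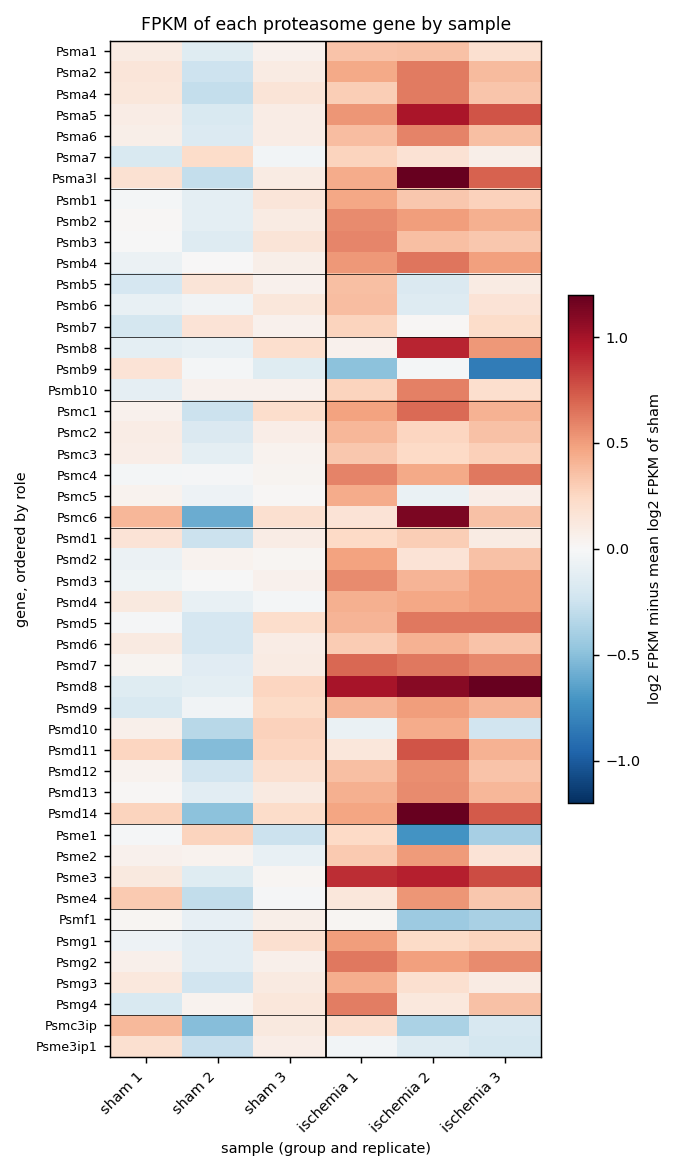
FPKM of the 48 proteasome genes (rows, ordered by role) in the 6 samples (columns), as log2 difference from the mean of the sham samples, red for higher and blue for lower, with colors saturating at the ends of the scale. The ischemia columns are mostly red, with medians of 0.40, 0.46 and 0.35. Psmb9 and Psme3ip1 lie below 0 in every ischemia column. Psmb5, Psmb6, Psmc5, Psmd10, Psme1, Psmf1 and Psmc3ip lie below 0 in some of them.

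Psmd8, a subunit of the lid of the regulatory particle, had the highest fold change of the set. The gene (ENSRNOG00000037580) lies at chromosome 1, 88116812 to 88123643, on the minus strand as the deposited table lists it, whose build is not given in the sources used here. The upstream stretch in RefSeq GRCr8, at chr1:93608690-93608789 on the minus strand, is shown because this promoter belongs to the gene that moved most. None of the 5 promoter motifs searched was found in it.
Psmd8: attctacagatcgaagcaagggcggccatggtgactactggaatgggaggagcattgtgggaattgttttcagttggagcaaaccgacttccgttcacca
Psmd8 stood at 47.6, 48.6 and 62.7 FPKM in the sham samples and at 104, 112 and 136 FPKM in the ischemia samples. All ischemia samples lay well above all sham samples. The means were 53.0 ± 8.5 FPKM in sham and 117.6 ± 16.7 FPKM in ischemia (SD, n = 3 each). From counts, the log2 fold change was 1.07 ± 0.22 (SE), or 2.10-fold, with an adjusted p of 0.0443 in edgeR.

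Psme3 encodes the gamma subunit of a ring-shaped activator that caps the core in the nucleus and opens it for proteins without ubiquitin. The gene (ENSRNOG00000051344) is listed at chromosome 10, 89236256 to 89244041, on the plus strand. The stretch upstream of its start in RefSeq GRCr8, at chr10:86757833-86757932 on the plus strand, carries a CCAAT box read on the other strand, in capitals.
Psme3: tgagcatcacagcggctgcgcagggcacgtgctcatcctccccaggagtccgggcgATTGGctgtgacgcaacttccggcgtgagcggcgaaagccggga
Psme3 was measured at 28.9, 24.0 and 27.0 FPKM in the sham samples and at 49.0, 50.5 and 45.6 FPKM in the ischemia samples. The samples of each group lay close together and the groups were far apart, at 26.6 ± 2.4 FPKM and 48.4 ± 2.5 FPKM (SD, n = 3 each). The log2 fold change was 0.78 ± 0.15 (SE), or 1.71-fold, with an adjusted p of 0.0413 in edgeR.

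Both calls sat close to the threshold in edgeR, whereas the adjusted p in DESeq2 was 0.000286 for Psmd8 and 6.02e-07 for Psme3. Without sham replicate 1 the adjusted p in edgeR was 0.170 for Psmd8, at a log2 fold change of 0.96, and 0.163 for Psme3, at 0.79. Neither passed without sham replicate 2 (0.0928 and 0.0862), sham replicate 3 (0.140 and 0.148), ischemia replicate 2 (0.0556 and 0.0555) or ischemia replicate 3 (0.140 and 0.142), and both passed without ischemia replicate 1 (0.0346 and 0.0391). Without any 1 of the sham samples or ischemia replicate 3, edgeR called 0 of all genes tested, so these losses are not particular to Psmd8 and Psme3, and without ischemia replicate 2 it called 462 genes higher. Over all alternatives the log2 fold change of Psmd8 ranged from 0.90 to 1.15 and that of Psme3 from 0.73 to 0.87.

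**Figure D3:**
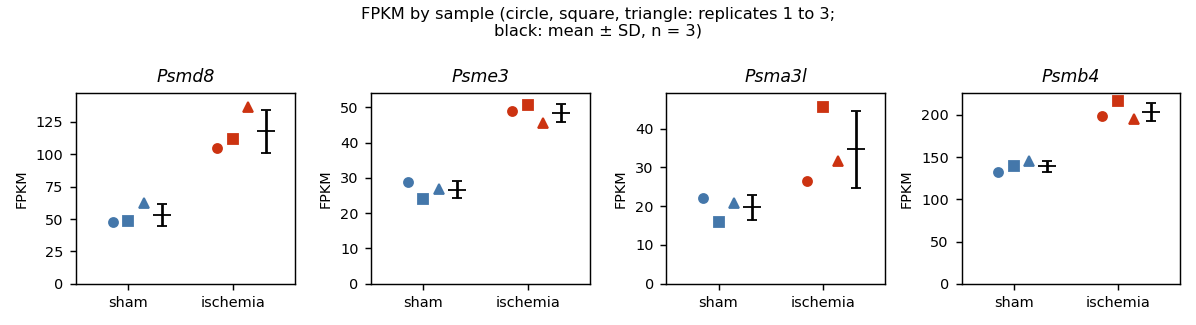
FPKM of Psmd8, Psme3, Psma3l and Psmb4 in each sham (blue) and ischemia (red) sample, with circle, square and triangle for replicates 1 to 3 and black marks for the mean and SD (n = 3). In all 4 genes every ischemia point lies above every sham point, and the ischemia points of Psma3l run from 26.6 to 45.7 FPKM.

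The alpha ring was higher throughout in point estimate. All 7 alpha genes tested had a fold change above 0, with a median of 0.36 on the log2 scale, 6 did not overlap between groups, beside 23.6% of all genes, and 0 passed the adjusted threshold. Psma3l, the alpha gene that the table lists with the suffix l, had the largest fold change of the ring. It stood at 22.2, 16.0 and 20.9 FPKM in sham and at 26.6, 45.7 and 31.8 FPKM in ischemia, highest in ischemia replicate 2. Its log2 fold change was 0.73 ± 0.21 (SE), adjusted p = 0.0798 in edgeR. Psma7 had the smallest, and its 136, 178 and 149.5 FPKM in sham overlapped with 185, 173 and 161 FPKM in ischemia. The log2 fold change of Psma7 was 0.05 ± 0.24 (SE), adjusted p = 0.898 in edgeR, and was -0.08 without sham replicate 1. The ring summed to 584, 544 and 592.5 FPKM in sham, wholly below its 738.5, 828.5 and 717 FPKM in ischemia.

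The structural beta subunits, which complete the inner rings without cutting sites, lay in a narrow range. All 4 had fold changes between 0.27 and 0.45 on the log2 scale, all 4 did not overlap between groups, beside 23.6% of all genes, 2 had an unadjusted p under 0.05, beside 18.2%, and 0 passed the adjusted threshold. Psmb4 was at 133, 139 and 145.5 FPKM in sham and at 199, 216 and 196 FPKM in ischemia, with 0.45 ± 0.17 on the log2 scale (SE) and an adjusted p of 0.134 in edgeR. Psmb1 was at 142, 133 and 159 FPKM in sham and at 199, 180.04 and 174 FPKM in ischemia, with 0.27 ± 0.17 and an adjusted p of 0.313 in edgeR. In both genes the samples of a group lay close to each other.

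Among the constitutive cutting subunits the groups overlapped in all 3 genes. Psmb5, the site that cuts after hydrophobic residues, stood at 94.7, 120.5 and 112 FPKM in sham and at 139, 96.0 and 116 FPKM in ischemia. Psmb6, which cuts after acidic residues, stood at 147, 152 and 172 FPKM in sham and at 203, 141 and 175 FPKM in ischemia. Psmb7, which cuts after basic residues, stood at 89.6, 116 and 108 FPKM in sham and at 126, 105 and 121 FPKM in ischemia. In each of these genes ischemia replicate 1 was the highest of all samples and ischemia replicate 2 the lowest of its group. The log2 fold changes were 0.0024 ± 0.26 for Psmb5, 0.06 ± 0.23 for Psmb6 and 0.06 ± 0.24 for Psmb7 (SE), with adjusted p of 0.996, 0.875 and 0.879 in edgeR. Without sham replicate 1 they were -0.13, -0.03 and -0.08. The 3 genes summed to 331, 389 and 392 FPKM in sham and to 467, 341 and 412 FPKM in ischemia. As a ratio to the alpha ring sum this was 0.567, 0.715 and 0.661 in sham and 0.633, 0.412 and 0.575 in ischemia, with overlap, so these samples gave no separation in the balance of cutting and alpha subunits.

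The immunoproteasome subunits stood at a lower level than the constitutive ones, with fold changes of either sign. Psmb8, which takes the place of Psmb5, was at 11.6, 11.8 and 14.5 FPKM in sham and at 13.0, 23.7 and 18.0 FPKM in ischemia. Its groups overlapped through ischemia replicate 1, and the log2 fold change was 0.44 ± 0.24 (SE), adjusted p = 0.240 in edgeR. Psmb9, which takes the place of Psmb6, was at 19.0, 16.7 and 15.3 FPKM in sham and at 12.0, 16.6 and 9.45 FPKM in ischemia. It had the lowest fold change of the whole set, -0.53 ± 0.23 on the log2 scale (SE), with overlap through ischemia replicate 2 and an adjusted p of 0.172 in edgeR. Psmb10, which takes the place of Psmb7, was at 19.4, 21.7 and 21.7 FPKM in sham and at 25.2, 31.8 and 24.0 FPKM in ischemia. Its groups did not overlap on FPKM, but did on scaled CPM, with 26.8 in sham replicate 2 against 25.6 and 25.5 in ischemia replicates 1 and 3, and the log2 fold change was 0.26 ± 0.20 (SE), adjusted p = 0.379 in edgeR. Psmb8, Psmb9 and Psmb10 were all at their highest ischemia level in replicate 2, the sample with the highest sum of neutrophil and monocyte markers. This was not particular to them, as 23 of the 48 genes tested had their highest ischemia level in that replicate. Whether leukocytes gave that RNA was not tested.

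**Figure D4:**
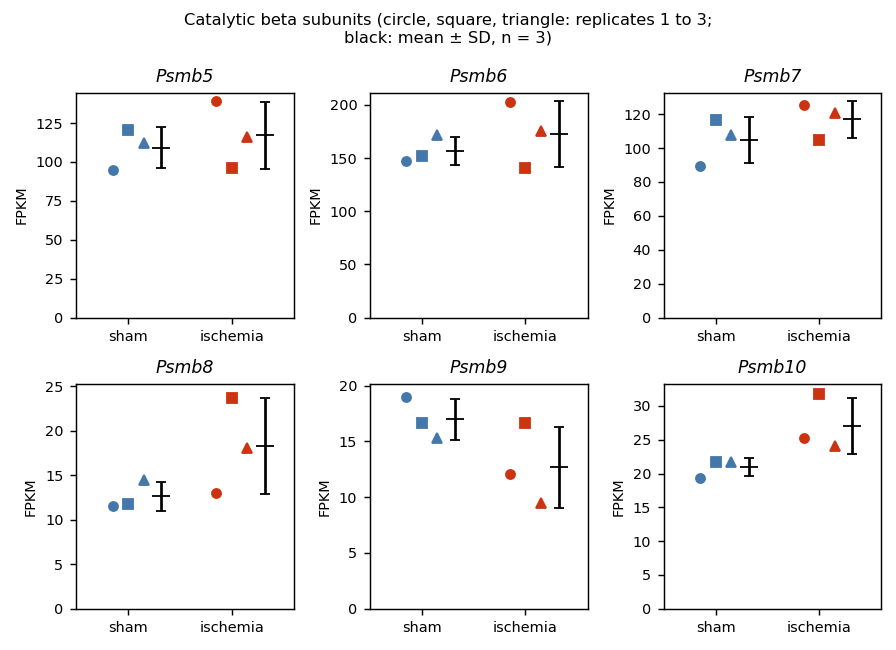
FPKM of the constitutive cutting subunits (upper row) and of the immunoproteasome subunits that replace them (lower row) in each sham (blue) and ischemia (red) sample, with circle, square and triangle for replicates 1 to 3 and black marks for the mean and SD (n = 3). On this FPKM scale groups overlap in all panels except Psmb10, and ischemia replicate 2 is lowest of its group in the upper row and highest in the lower row.

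Each immunoproteasome subunit was then set against the subunit it replaces, within samples, in 3 comparisons. Psmb8 reached 12.2%, 9.78% and 12.9% of the FPKM of Psmb5 in sham and 9.36%, 24.7% and 15.6% in ischemia. The mean log2 ratio was -3.11 ± 0.21 in sham and -2.71 ± 0.70 in ischemia (SD, n = 3), a difference of 0.41 with p = 0.5 in a two-sided exact permutation test. Psmb9 reached 12.9%, 10.99% and 8.92% of Psmb6 in sham and 5.95%, 11.8% and 5.39% in ischemia, a difference of -0.58 in log2 ratio with exact permutation p = 0.3. Psmb10 reached 21.6%, 18.7% and 20.2% of Psmb7 in sham and 20.1%, 30.3% and 19.9% in ischemia, a difference of 0.19 with exact permutation p = 0.7. Groups overlapped in all 3 ratios, the adjusted p over the 3 comparisons was 0.7 for each, and 3 samples against 3 cannot give a p below 0.1. Without sham replicate 1 the differences were 0.45, -0.45 and 0.24. They were 0.29, -0.57 and 0.14 without sham replicate 2, and 0.49, -0.72 and 0.19 without sham replicate 3. Leaving out ischemia replicate 1 gave 0.76, -0.44 and 0.29. Leaving out ischemia replicate 2 gave 0.06, -0.93 and -0.0092, and leaving out ischemia replicate 3 gave 0.40, -0.37 and 0.30. Summed, the immunoproteasome subunits were 15.1%, 12.9% and 13.1% of the constitutive cutting subunits in sham and 10.8%, 21.1% and 12.5% in ischemia, the highest and the lowest value both being ischemia samples.

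The genes that serve peptide loading and interferon signaling, with which the immunoproteasome is often coexpressed, were read from a separate list of 8 genes. All 8 were tested, 1 had a fold change above 0, the median was -0.22 and 0 passed the adjusted threshold. The highest was Tap2, a subunit of the peptide transporter, with 0.07 ± 0.28 (SE) and an adjusted p of 0.881 in edgeR.

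The ATPase ring, which unfolds substrates, had 6 genes with fold changes from 0.08 to 0.48 on the log2 scale and a median of 0.34. Groups did not overlap in 4 of the 6, beside 23.6% of all genes, and 0 passed the adjusted threshold. Psmc6 had the highest fold change, 0.48 ± 0.29 (SE, adjusted p = 0.283 in edgeR), but wide groups, with 24.999, 12.6 and 21.6 FPKM in sham and 21.2, 41.5 and 24.2 FPKM in ischemia. Psmc5 had the lowest, 0.08 ± 0.22 (SE, adjusted p = 0.811 in edgeR), with 103, 95.5 and 101 FPKM in sham and 136, 94.7 and 106 FPKM in ischemia. Both genes overlapped between groups. The ring summed to 471, 407 and 475 FPKM in sham against 605, 572.5 and 569 FPKM in ischemia.

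The 14 genes with a Psmd symbol were grouped by name as non-ATPase genes of the regulatory particle, assembly chaperones included. Of these, 13 had a fold change above 0, with a median of 0.36 on the log2 scale. In 11 of the 14 the groups did not overlap, beside 23.6% of all genes, 5 had higher values with an unadjusted p under 0.05, beside 18.2%, and Psmd8 alone passed the adjusted threshold. Psmd14, the enzyme that removes ubiquitin chains at the entry of the particle, came next with 0.74 ± 0.23 (SE, adjusted p = 0.0918 in edgeR), and was named after its values were seen. It stood at 22.8, 13.5 and 22.1 FPKM in sham, with no overlap with its 26.2, 44.9 and 31.5 FPKM in ischemia. At the other end was Psmd10, a chaperone that helps to assemble the regulatory particle, with -0.03 ± 0.31 (SE, adjusted p = 0.950 in edgeR). It was also the gene with the lowest level, at 4.55, 3.46 and 5.28 FPKM in sham and 4.12, 5.94 and 3.71 FPKM in ischemia. The 14 genes summed to 584, 521.5 and 616 FPKM in sham against 807, 843 and 830.3 FPKM in ischemia, the widest gap between groups among the summed roles plotted.

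**Figure D5:**
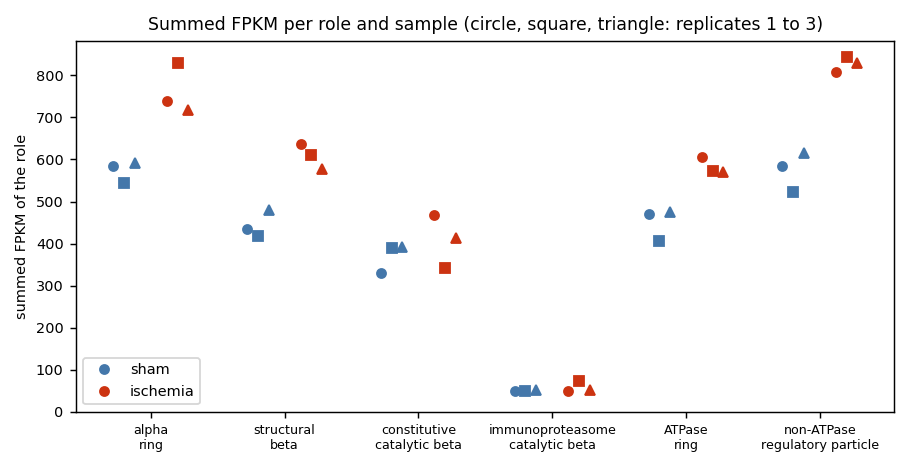
Summed FPKM of 6 roles of the proteasome in each sham (blue) and ischemia (red) sample, with circle, square and triangle for replicates 1 to 3. The groups are separate for the alpha ring, the structural beta subunits, the ATPase ring and the non-ATPase genes, and overlap for the constitutive and immunoproteasome cutting subunits, where the sums reach 467 and 72.1 FPKM.

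Among the activators of the core, Psme3 alone passed the adjusted threshold, beside 5.18% of all genes called higher. Psme1, which forms the interferon-inducible activator with Psme2, had the highest level of the set in sham. It stood at 363, 440.1 and 307 FPKM in sham and at 431, 222 and 277 FPKM in ischemia, with -0.36 ± 0.36 on the log2 scale (SE) and an adjusted p of 0.503 in edgeR. The groups overlapped, as ischemia replicate 1 lay near the sham samples. Over the 4 activator genes the median was 0.23 and 3 were above 0, beside 49.9% of all genes. On FPKM 2 lay wholly above sham, beside 23.6% of all genes, and of these Psme2 overlapped on scaled CPM. Psmf1, an inhibitor of the core in the test tube, had -0.34 ± 0.20 (SE, adjusted p = 0.270 in edgeR), with 28.1, 25.9 and 29.0 FPKM in sham and 28.0, 20.4 and 21.1 FPKM in ischemia.

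Of the assembly chaperones, which build the core rings, all 4 had a fold change above 0 with a median of 0.27 on the log2 scale. On FPKM 2 lay wholly above sham, beside 23.6% of all genes, and of these Psmg1 overlapped on scaled CPM. At the adjusted threshold 0 passed. Psmg2 was highest with 0.48 ± 0.18 (SE, adjusted p = 0.126 in edgeR), from 12.0, 10.5 and 12.0 FPKM in sham to 17.8, 16.1 and 17.0 FPKM in ischemia. Psmg3 was lowest with 0.16 ± 0.19 (SE, adjusted p = 0.581 in edgeR), from 14.99, 11.7 and 14.8 FPKM in sham to 18.6, 15.7 and 14.7 FPKM in ischemia. Psmg2 was tight within groups and separate between them, whereas Psmg3 overlapped.

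The other 2 genes matched by name only and are not subunits. Psmc3ip, a factor of meiotic recombination, had -0.21 ± 0.29 (SE, adjusted p = 0.636 in edgeR), with 11.3, 6.08 and 9.38 FPKM in sham and 9.84, 6.65 and 7.58 FPKM in ischemia. Psme3ip1, which binds the Psme3 protein, had -0.22 ± 0.15 (SE, adjusted p = 0.338 in edgeR), with 32.7, 23.6 and 30.1 FPKM in sham and 27.8, 25.7 and 24.7 FPKM in ischemia. Both overlapped between groups on FPKM, while on scaled CPM Psme3ip1 lay wholly below sham, beside 19.1% of all genes. Both were below 0 where most true subunits were above.

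Genes that work with the proteasome, a list of 28 symbols for ubiquitin precursors, shuttles, assembly and control factors, were also read. Because Rps27a has more than 1 row, the list gave 29 rows, all tested. Of these, 21 had a fold change above 0, the median was 0.28 on the log2 scale, 14 lay wholly above sham and 2 wholly below, beside 23.6% and 15% of all genes, and 1 rose while 0 fell at the adjusted threshold, beside 5.18% and 1.53%. The row that rose was Rps27a on chromosome 14 (ENSRNOG00000004426, 113966611 to 113968268, minus strand), which encodes ubiquitin fused to a ribosomal protein. It stood at 366, 255 and 383.5 FPKM in sham and at 692, 892.5 and 628 FPKM in ischemia, with 1.06 ± 0.19 on the log2 scale (SE) and an adjusted p of 0.0374 in edgeR. The other row of Rps27a, on chromosome 5, had 0.44 ± 0.20 (SE, adjusted p = 0.186 in edgeR), reads may be split between these copies, and with the rows summed 0 genes of the list passed. Without sham replicate 1 also 0 passed, as in the whole table. Zfand2a, a stress-induced partner of the regulatory particle, had the highest fold change, 1.87 ± 0.63 (SE, adjusted p = 0.108 in edgeR). Its FPKM of 47.98 in ischemia replicate 2 stood far from 7.73 and 13.0 in ischemia replicates 1 and 3 and from 6.21, 4.09 and 6.99 in sham. Ubqln2, a ubiquitin shuttle, had the lowest, -0.71 ± 0.20 (SE, adjusted p = 0.0737 in edgeR), with 9.88, 6.42 and 9.71 FPKM in sham and 6.42, 5.21 and 5.01 FPKM in ischemia.

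Promoters of the set were read from RefSeq GRCr8, from 250 bases before to 50 bases after the start, for the 44 of 50 genes with a symbol match. These matches to letters are a description and no test of binding. The antioxidant response core TGACNNNGC was found on either strand in 7 of the 44, or 15.9%, beside 12.2% of 27455 promoters. The inverted heat shock unit pair GAANNTTC was in 3 (6.82% beside 8.34%), the gamma interferon site TTCNNNGAA in 4 (9.09% beside 8.68%) and CCAAT in 22 (50% beside 37.7%). The interferon response core GAAANNGAA was in 9, or 20.5% beside 9.5%, and these were Psma4, Psmb2, Psmb3, Psmb8, Psmb10, Psmd7, Psmd11, Psme2 and Psmg4. Psmb9 and Psme1 held 0. Psmb10, whose groups did not overlap on FPKM and overlapped on scaled CPM, held 3 of them, which overlap in part, in capitals in its upstream stretch at chr19:50743293-50743392 on the minus strand.
Psmb10: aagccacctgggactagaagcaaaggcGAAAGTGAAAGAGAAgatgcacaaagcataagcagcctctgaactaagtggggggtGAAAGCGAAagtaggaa
Among the beta subunits, the antioxidant response core stood in 1 structural gene, Psmb2, and in Psmb5 and Psmb6, which are shown with the core in capitals to compare genes whose groups did and did not overlap. The positions are chr5:144254979-144255009 on the plus strand for Psmb2, chr15:32047420-32047450 on the minus strand for Psmb5 and chr10:55737853-55737883 on the plus strand for Psmb6.
Psmb2: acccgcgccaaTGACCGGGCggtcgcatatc
Psmb5: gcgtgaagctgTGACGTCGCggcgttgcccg
Psmb6: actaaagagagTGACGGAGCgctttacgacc
The groups were separate in Psmb2 and overlapped in Psmb5 and Psmb6.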

How the data were processed

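Total RNA of myocardium was measured in 3 sham and 3 ischemia samples. The authors deposited 1 table of raw counts, whole numbers per gene that were not normalized. The authors also deposited FPKM, with genes without reads set to 0.0001. STAR and HTSeq are named in the submitters' processing notes. Their versions and the genome build are not given in the sources used here. The kit kept strand, but the counting rule was not given, so reads of near-identical copies (RefSeq lists loci named Psmb3l1, Psmb6l1 and Psmg4l1) could be shared or split.

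Genes with a mean of at least 0.5 FPKM (13964) were tested with the quasi-likelihood test of edgeR 4.0.16 on the counts, scaled by the trimmed mean of M-values, without covariates, two-sided, with Benjamini-Hochberg adjustment over all tested genes and a threshold of 0.05. SE was derived from the F statistic. FPKM ratios of subunit pairs were compared with exact permutation tests. The test was checked on simulated data. Total counts of 68529126 to 79591989 make 3 counts equal to 0.0377 to 0.0438 CPM, which covers counting error only. The study describes independent experiments on rats, but the labels do not say whether each sample is a separate animal, so p-values measure the spread between these samples, which may be technical.

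Genes named with values were the cutting subunits, those past the adjusted threshold and the highest and lowest fold change of each role and list. A gene that this rule names is not reported here. Members, roles and lists were chosen with earlier results of these data known. Alternatives were DESeq2 1.42.0, limma 3.58.1 on log2(FPKM + 0.1) and log2(FPKM + 1), other filters and scalings, a replicate block, summed symbols and each sample left out. Counts of genes with separate groups under CPM and with samples left out were added after seeing the data. R 4.3.3, Python 3.11.15 and matplotlib 3.10.9 were used.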

Additional observations from a re-analysis of the deposited data

How the results depend on the processing

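Psmd8 and Psme3 were the genes called higher under both limma fits, a filter of 5 FPKM, median-ratio scaling, equal totals, quantile normalization and summed symbols. DESeq2 called 14 proteasome genes higher, no filter called 0 (adjusted p 0.0554 and 0.0574) and leaving out samples gave 0 to 5, with 5 only without ischemia replicate 1 and 0 without each other sample. None was called lower under any of these. The median of the proteasome genes stayed between 0.27 and 0.40. In counts added after seeing the data, 26 genes lay above sham on scaled CPM, beside 22% of all genes, and 31 to 34 with a sample left out, beside 25.7% to 31.2%. Below sham lay 1 on scaled CPM, Psme3ip1 (19.1%), against 0 on FPKM, and 0 to 2 with a sample left out (16.1% to 26.8%).

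Over all genes, 723 higher and 214 lower became 2071 and 1742 with DESeq2 and 0 to 1490 and 0 to 1115 with a sample left out. Lower counts were 93 with no filter, 83 with equal totals, which moved the median of all genes to 0.088, and 443 with quantile normalization. Of the associated genes, DESeq2 called 5 higher and 1 lower, equal totals 0 and summed symbols 0, and leaving out samples gave 0 to 3 higher and 0 to 1 lower.

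With the replicate number as a block, 0 proteasome genes, 0 associated genes and 0 of all genes passed in either direction, Psmd8 at adjusted p 0.111 and Psme3 at 0.135, while 3349 genes had an unadjusted p under 0.05. Deviations of same-numbered samples from their group means correlated at -0.06, -0.09 and -0.20. With 3 samples in each group, these values cannot settle whether the numbers pair the samples. The Psmb8, Psmb9 and Psmb10 ratios with samples paired by number gave exact p of 0.75, 0.5 and 1 (smallest possible 0.25).

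Direction changed for Psmb5 with DESeq2 (-0.0272), 5 FPKM (-0.0436), median-ratio scaling (-0.0272) and quantile normalization (-0.0343), and for Psmd10 with limma (0.0433 and 0.0369), equal totals (0.0564) and quantile normalization (0.066). With a sample left out, log2 fold changes ran from -0.0831 to 0.29 for Psma7, -0.16 to 0.20 for Psmb5, -0.0881 to 0.22 for Psmb6, -0.0827 to 0.27 for Psmb7, -0.10 to 0.23 for Psmc5 and -0.20 to 0.0624 for Psmd10, and the Psmb10 to Psmb7 log2 ratio from -0.0092 to 0.30. The cause was not tested.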
